A study of Mus musculus with 4 samples.

Results

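In all, 8 cytokine genes were followed in cultured mouse B cells: Il6, Il12a, Il12b, Il23a, Il27, Ebi3, Csf1, and Il1b. They were chosen by symbol, and all 8 were found once among the 31053 genes of the count table. The cells were wild-type (WT) splenic B cells that had been purified and cultured for 3 days with a CpG class B oligonucleotide, a TLR9 ligand, to give Bregs-CpG (2 samples). Bregs-TLR (2 samples) had the same culture and were given 3 more agents in its final 5 hours, namely LPS, PMA, and ionomycin. The study's methods put all its mice at 6 to 12 weeks old and its WT mice on the C57BL/6 background, their sex was not given in the sources used here, and no label says whether samples came from separate animals. All 4 samples carry the CpG culture, so neither group holds resting B cells, and a value in Bregs-TLR would reflect 3 added agents together.

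The cell barcodes number 4 libraries from 5 to 8, and no label ties a number to a sample. The values below are therefore given for each numbered library. Bregs-TLR and Bregs-CpG were not compared. Where libraries are set against each other, an interval covers the counting error of those libraries only and says nothing of replicates or conditions. Of 19920 cells, 18534 had at least 1000 detected genes and under 10% mitochondrial counts. Each library kept between 4003 and 5621 cells and between 44842982 and 63638158 unique molecular identifiers (UMIs), each of which stands for a captured mRNA molecule. Depth and mitochondrial share moved with the library, and their part in the results was not tested. Median depth was 8752, 8785, 10355, and 10077 UMIs per cell in libraries 5, 6, 7, and 8, and the median mitochondrial share was 7.22%, 7.18%, 4.61%, and 4.65%. Pairs of libraries shared 29 barcode sequences in sum. Every kept cell of libraries 5 to 7 had a UMI of at least 1 of 6 B cell markers, whose summed level was 13914, 14449, 7388, and 7299 counts per 1000000 UMIs (CPM). Some defining markers of macrophages (Lyz2, C1qa), neutrophils (S100a8), and T and NK cells (Cd3e, Nkg7) were at 0 in all kept cells. Other genes of these lists were not, among them Adgre1 (44 UMIs), Csf3r (58), Cd3d (31), and Trac (83). The summed level of the macrophage list stayed between 3.16 and 4.74 CPM, and it rested mainly on Cd68 and Itgam. The neutrophil list reached at most 0.534 CPM and the T and NK cell list at most 0.788 CPM. The dendritic cell list was at 4.59, 5.71, 1.59, and 1.60 CPM, nearly all of it Flt3 in libraries 5 and 6. Hbb-bt, a globin gene, was at 4.57, 4.30, 218, and 285 CPM. Hbb-bs, also a globin gene, reached 0.660 CPM in library 7, while the erythroid marker Hba-a1 was at 0. The plasma cell list was at 1614, 1779, 390, and 339 CPM, mostly Mzb1 in libraries 5 and 6. Its genes did not move together. Derl3 was also higher in libraries 5 and 6. Sdc1, at 0.201, 0.213, 7.45, and 6.15 CPM, and Xbp1, at 84.7, 91.7, 112, and 107 CPM, were higher in libraries 7 and 8. Flt3 and Mzb1 were thus higher in libraries 5 and 6 and Hbb-bt and Sdc1 in libraries 7 and 8, and their part in the results was not tested.

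The cytokines of the IL-12 family are heterodimers that share chains. The Il12a product, p35, pairs with p40 from Il12b to form IL-12 and with EBI3 to form IL-35. The Il27 product, p28, pairs with EBI3 to form IL-27, and p19 from Il23a pairs with p40 to form IL-23. IL-6 is a single-chain cytokine that signals through IL6RA and gp130, and B cells are a known source of it after TLR ligation. IL-35 is known as a suppressive product of regulatory B cells, and neither chain alone makes the cytokine.

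The member genes fell into 3 patterns over the libraries. Il6 had nearly the same level in all 4. Il12a, Ebi3, Csf1, and Il1b were higher in libraries 5 and 6 than in libraries 7 and 8, and Il27 was found in libraries 7 and 8 and in no kept cell of libraries 5 and 6. Il12b was at 0 throughout, and Il23a was close to 0. Of the 6 members with at least 50 UMIs, 5 had a range of at least 2-fold, taken as the highest over the lowest library. The same call was met by 4533 of 11922 genes with at least 50 UMIs, or 38.0%. The median log2 range was 1.73 for the 6 members and 0.77 for all tested genes.

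**Figure D1:**
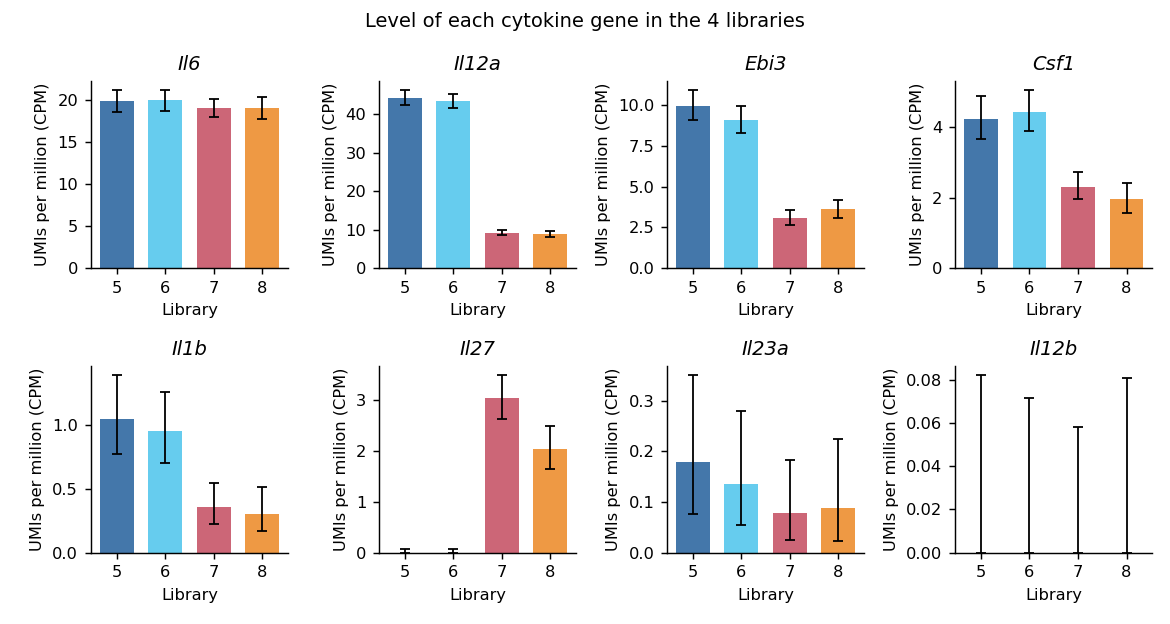
Level of each member gene in CPM ( vertical axis, scale set per gene) in libraries 5 to 8. Bars are the summed counts of the kept cells and lines are exact Poisson 95% intervals. Il6 lies between 19.05 and 19.97 CPM in every library, Il12a between 8.82 and 44.4 CPM.

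Il6 encodes a cytokine that drives plasma cell survival and acute-phase responses. Its level was 19.8, 19.97, 19.1, and 19.0 CPM in libraries 5, 6, 7, and 8, from 890, 1031, 1213, and 870 UMIs. The log2 range was 0.07, with an exact conditional 95% interval from -0.06 to 0.20, so counting error alone spans the spread. Il6 was detected in 16.8%, 17.4%, 16.9%, and 16.9% of cells. The level depended on what it was divided by. Mitochondrial, ribosomal protein, and immunoglobulin genes made up 44.4%, 43.6%, 36.7%, and 38.3% of the UMIs, and per 1000000 of the remaining UMIs Il6 was at 35.7, 35.4, 30.1, and 30.9. On that scale libraries 5 and 6 were the higher ones. Between 19.7% and 21.9% of the cells with Il6 had 2 or more UMIs of it, and the 10 richest cells held at most 4.94% of a library's Il6 UMIs, so the signal was spread over many cells.

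Il12a was the member with the highest summed count in libraries 5 and 6. It was at 44.4, 43.5, 9.26, and 8.82 CPM in libraries 5, 6, 7, and 8, from 1991, 2248, 589, and 403 UMIs. Libraries 5 and 6 did not differ beyond counting error, and neither did libraries 7 and 8. The highest library was 5.03-fold above the lowest (log2 range 2.33, 95% interval 2.18 to 2.49). The share of cells with Il12a was 34.8% and 35.5% in libraries 5 and 6 and 9.20% and 8.92% in libraries 7 and 8. After every cell had been thinned to 5000 UMIs, which leaves out between 114 and 233 shallower cells per library, the shares were 20.6%, 20.5%, 4.62%, and 4.39%. The UMIs per detected cell were 1.36, 1.34, 1.14, and 1.13.

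Ebi3, the chain shared by IL-27 and IL-35, was also higher in libraries 5 and 6, at a lower level. It was at 9.97, 9.08, 3.08, and 3.61 CPM, from 447, 469, 196, and 165 UMIs. The log2 range was 1.69 (95% interval 1.45 to 1.94), and neither libraries 5 and 6 nor libraries 7 and 8 differed beyond counting error. A single cell of library 8 held 18 Ebi3 UMIs, while no cell of libraries 5 to 7 held more than 3. Without that cell, library 8 was at 3.22 CPM. Ebi3 was detected in 9.60%, 9.02%, 3.26%, and 3.25% of cells, and in 4.33%, 4.15%, 1.28%, and 1.25% after thinning.

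The 250 bases before the start sites of Il6, Ebi3, and Il12a are shown because Il6 held its level over the libraries while both genes of the IL-35 chains differed. RefSeq windows on GRCm38.p6 were at hand for 6 of the 8 members, and sequences read 5′ to 3′ on the strand of the gene. Capitals mark matches on either strand to the AP-1 letters TGANTCA, the CRE letters TGACGTCA, the C/EBP letters TTGNNCAA, or the NF-κB consensus, and no match in these windows overlapped another.
Il6, chr5:30012864-30013113, plus strand: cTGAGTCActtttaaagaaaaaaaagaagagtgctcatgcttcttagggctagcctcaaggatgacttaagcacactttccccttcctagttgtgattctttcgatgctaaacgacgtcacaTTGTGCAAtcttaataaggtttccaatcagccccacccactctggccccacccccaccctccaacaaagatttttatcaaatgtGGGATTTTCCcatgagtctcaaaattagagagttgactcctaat
Ebi3, chr17:55952373-55952622, plus strand: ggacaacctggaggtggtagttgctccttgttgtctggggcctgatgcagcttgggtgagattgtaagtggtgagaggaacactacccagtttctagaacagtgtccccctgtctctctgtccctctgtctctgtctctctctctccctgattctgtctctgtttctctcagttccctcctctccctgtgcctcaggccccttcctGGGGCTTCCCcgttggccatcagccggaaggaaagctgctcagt
Il12a, upstream start, chr3:68690394-68690643, plus strand: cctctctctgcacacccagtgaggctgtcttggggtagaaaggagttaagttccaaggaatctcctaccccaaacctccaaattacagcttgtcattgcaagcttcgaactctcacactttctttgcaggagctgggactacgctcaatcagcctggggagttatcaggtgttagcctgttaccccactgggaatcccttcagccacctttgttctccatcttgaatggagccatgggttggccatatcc
Il12a, downstream start, chr3:68691174-68691423, plus strand: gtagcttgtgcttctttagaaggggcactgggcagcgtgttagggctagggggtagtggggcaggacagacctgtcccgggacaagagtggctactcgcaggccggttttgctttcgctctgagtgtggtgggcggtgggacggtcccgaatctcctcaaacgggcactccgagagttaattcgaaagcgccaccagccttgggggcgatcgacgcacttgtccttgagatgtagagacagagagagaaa

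The Il6 window held an AP-1 match at -249 to -243, a C/EBP match at -128 to -121, and an NF-κB match at -44 to -35, counted from the start site. The Ebi3 window held an NF-κB match at -44 to -35. Neither Il12a window held a match. Of 32817 promoter windows of the same length, 6.75% held the AP-1 letters, 1.55% the CRE letters, 5.65% the C/EBP letters, and 7.25% the NF-κB consensus. The Csf1 window also held an NF-κB match, at -154 to -145, and the windows of Il12b and Il1b held none of the 4. UMIs were counted from the 3′ end of transcripts, so the start sites of Il12a cannot be told apart in these counts.

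Il12b, which encodes p40, had no UMI in any of the 18534 kept cells. A count of 0 allows up to 3 UMIs, or between 0.0471 and 0.0669 CPM, and a share of cells with a UMI of up to 0.0534% to 0.0749% per library. No cell could therefore be counted with the mRNAs of both IL-12 chains. Il23a, which encodes p19, had 8, 7, 5, and 4 UMIs in libraries 5, 6, 7, and 8, each in a different cell. This is 0.178, 0.136, 0.0786, and 0.0876 CPM, and the intervals of all 4 overlapped.

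Whether Il12a and Ebi3, the genes of both IL-35 chains, were found in the same cells was described within each library. In all kept cells, 139 of 1460 cells with Il12a also had Ebi3 in library 5, 182 of 1672 in library 6, 20 of 517 in library 7, and 13 of 357 in library 8. Cells with Ebi3 were deeper than cells without it, with medians of 11549 against 8572 UMIs in library 5 and 12428 against 8600 in library 6. For this reason the shares were compared at 5000 UMIs per cell. Ebi3 was then found in 3.48% of cells with Il12a and 4.56% of cells without it in library 5, and in 4.56% and 4.05% in library 6. In library 7 the shares were 0.803% and 1.30%, and in library 8 they were 0.592% and 1.28%, from 2 and 1 cells with both genes. The difference, cells with Il12a minus cells without, was -1.07 percentage points in library 5 (Newcombe 95% interval -2.38 to 0.54), 0.51 in library 6 (-0.84 to 2.14), -0.50 in library 7 (-1.18 to 1.60), and -0.69 in library 8 (-1.33 to 2.02). All 4 intervals of this draw held 0, and the sign was not the same in all libraries. Other draws and cell filters gave intervals on one side of 0 in single libraries, at -1.92 points in library 5 (-3.12 to -0.44) with at least 500 genes per cell and at 1.55 points in library 7 (0.03 to 4.52) with a second seed. The intervals of the first draw in libraries 5 and 6 leave room for differences of 2.38 points below 0 or 2.14 points above it. Those of other draws and filters reach further, and none of the intervals shows that the genes were independent. Averaged over all possible draws of the thinning, with at least 1000 genes per cell, the differences were -0.85, 0.07, 0.05, and -0.18 points. Without thinning, the difference in library 6 was 2.90 points (1.16 to 4.72), and it was this value alone among the unthinned ones whose interval lay above 0.

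**Figure D2:**
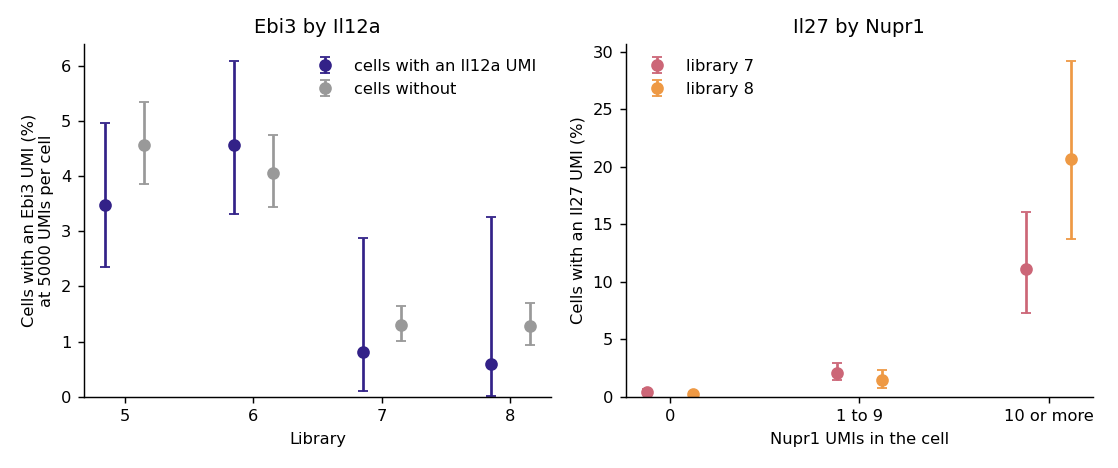
Left, percent of cells with an Ebi3 UMI at 5000 UMIs per cell (vertical axis) among cells with an Il12a UMI and cells without, by library. Right, percent of cells with an Il27 UMI by the number of Nupr1 UMIs in the cell, for libraries 7 and 8 without thinning, where points are shares and lines are Clopper-Pearson 95% intervals. The Ebi3 shares with and without Il12a overlap in their intervals in every library, and Il27 reaches 11.1% and 20.7% of cells with 10 or more Nupr1 UMIs.

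Il27, which encodes p28, had 193 UMIs in library 7 and 93 in library 8, and none in libraries 5 and 6. These are 3.03 and 2.04 CPM (95% intervals 2.62 to 3.49 and 1.64 to 2.49), so library 7 lay above library 8 by more than counting error (log2 difference 0.57, 95% interval 0.21 to 0.95). Against the floor of 3 UMIs in library 5, library 7 was 45.3-fold higher, a value that leaves out the counting error of library 7. Il27 was concentrated in few cells. It was detected in 74 cells of library 7 (1.32%) and 45 cells of library 8 (1.12%), 47.3% and 44.4% of which held 2 or more UMIs. The 10 richest cells held 43.5% and 51.6% of its UMIs. Of the cells with Il27, 3 of 74 and 2 of 45 also had Ebi3, the chain that completes IL-27, and after thinning none did, where the product of the separate shares would give 0.615 and 0.287 cells.

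Of the 3 genes most enriched in cells with Il27, 2 lay beside it on chromosome 7. With a minimum of 40 cells per library, which was lowered from 50 after the values were seen, these were Nupr1, Cln3, and Ung, of which Ung, a DNA repair gene, is not a neighbor. Nupr1, a stress-responsive nuclear protein gene, was at 591 CPM in cells with Il27 and 118 CPM in cells without it in library 7, and at 1016 and 93.3 CPM in library 8. On GRCm38 (GENCODE vM21), Il27 lies at chr7:126589010-126594941 on the minus strand. Nupr1 lies 28307 bases upstream of it on the same strand, and Cln3, a lysosomal membrane protein gene, lies 3192 bases downstream, also on the same strand. Apobr overlaps the end of Il27 on the opposite strand. Nupr1 itself was at 2.74, 2.54, 126, and 106 CPM in libraries 5, 6, 7, and 8, and Cln3 was at 10.2, 9.64, 25.2, and 24.5 CPM. In library 7, Il27 was detected in 0.443% of cells with no Nupr1 UMI, 2.11% of cells with 1 to 9, and 11.1% of cells with 10 or more. In library 8 these shares were 0.211%, 1.44%, and 20.7%. In a separate draw of 5000 UMIs per cell, 35 of 42 cells with Il27 in library 7 and 21 of 23 in library 8 also had Nupr1. The product of the separate shares would give 9.44 and 4.503 cells. Cln3 was found in 16 of the 42 and 3 of the 23, where the product would give 4.81 and 2.57 cells. The Il27 share was 2.05 points higher in cells with Cln3 in library 7 (1.03 to 3.64). The same difference was 0.11 points in library 8 (-0.45 to 1.46), an interval that held 0. Nupr1, Cln3, and Apobr were examined after the like-gene rule had named the neighbors, and whether any Il27 UMIs came from transcripts that start at a neighboring gene was not tested.

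Csf1 encodes the growth factor of the macrophage lineage, and Il1b an inflammatory cytokine made as an inactive precursor. Csf1 was at 4.24, 4.43, 2.31, and 1.95 CPM in libraries 5, 6, 7, and 8, from 190, 229, 147, and 89 UMIs, with a log2 range of 1.19 (95% interval 0.83 to 1.56). It was detected in 3.81%, 3.99%, 2.10%, and 1.95% of cells. Libraries 5 and 6 lay above libraries 7 and 8, and within these neighbors the levels did not differ beyond counting error. Il1b was at 1.05, 0.949, 0.361, and 0.307 CPM, from only 47, 49, 23, and 14 UMIs. Those UMIs lay in 26, 29, 8, and 7 cells, and 1 cell each held 13 of the 47 UMIs in library 5 and 16 of the 23 in library 7. Without the richest cell of each library, Il1b was at 0.758, 0.852, 0.110, and 0.175 CPM, with the same order of libraries 5 and 6 over libraries 7 and 8.

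The members were seldom found together. After thinning, a UMI of any member was found in 32.7% and 32.5% of cells in libraries 5 and 6 and in 15.7% and 15.9% in libraries 7 and 8, and 2 different members were found in 3.44%, 3.50%, 0.650%, and 0.832% of cells. Il6 and Il12a were detected together in 76, 89, 17, and 17 cells, where the product of their shares gave 76.1, 89.3, 21.1, and 15.5. Csf1 was found in 2.40%, 2.97%, 2.01%, and 1.78% of cells with Il12a and in 1.87%, 1.72%, 0.895%, and 1.20% of cells without it. The share was higher with Il12a in all 4 libraries, and the interval of the difference lay above 0 in library 6 (1.24 points, 0.22 to 2.58). By Il6, the Csf1 share was lower in cells with it in all 4 libraries. That interval lay below 0 in library 7 (0 of 456 cells, -1.03 points, -1.36 to -0.16). Il1b was found in 0.840% of cells with Il12a and 0.125% of cells without it in library 5 (difference 0.72 points, 0.24 to 1.60), from 7 and 4 cells. In library 6 the same shares were 0.424% and 0.246%. In libraries 7 and 8 no cell with Il12a had Il1b. The intervals for Il1b by Il6 and by Csf1 also lay above 0 in library 5, from 3 and 2 cells with both genes.

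Il10, the suppressive cytokine by which such B cells are often recognized, was at 13.7, 11.1, 255, and 253 CPM in libraries 5, 6, 7, and 8. At 5000 UMIs per cell, Il6 was found in 15.2%, 11.4%, 9.34%, and 9.46% of cells with Il10 and in 8.88%, 9.38%, 7.31%, and 8.73% of cells without it. The share of Il6 was higher in cells with Il10 in all 4 libraries, with intervals of the difference above 0 in library 5 (6.27 points, 1.503 to 12.6) and library 7 (2.03 points, 0.54 to 3.50). Il12a had the opposite sign in each library, though in library 6 the difference was only -0.04 points (-5.61 to 6.83). It was found in 16.4%, 20.5%, 4.18%, and 3.79% of cells with Il10 and in 20.8%, 20.5%, 5.20%, and 5.24% of cells without it, and the interval lay below 0 in library 8 (-1.45 points, -2.84 to -0.13). For Ebi3 and Csf1 the intervals held 0 in every library. For Il27 they held 0 in libraries 7 and 8, and libraries 5 and 6 had no Il27 UMI to compare. In library 7, 28 cells with Il27 had Il10, which is 0.914% of cells with Il10 against 0.860% of cells without it. In library 8, 17 cells with Il27 had Il10, or 0.758% against 0.374%.

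**Figure D3:**
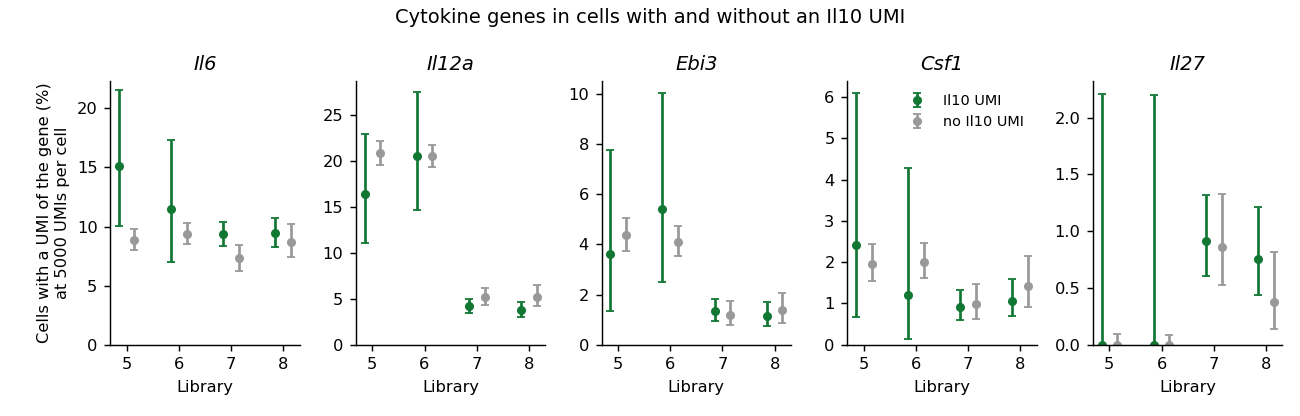
Percent of cells with a UMI of Il6, Il12a, Ebi3, Csf1, and Il27 (vertical axis, scale set per gene) at 5000 UMIs per cell, among cells with an Il10 UMI and cells without, in libraries 5 to 8. Points are shares and lines are Clopper-Pearson 95% intervals, and the Il6 share is higher in cells with Il10 in each library, at 15.2% against 8.88% in library 5.

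At equal depth, the shares of cells with Il12a and with Ebi3 went opposite ways with mitosis in libraries 5 and 6. Cells with 5 or more UMIs per 10000 from a list of 8 mitosis genes numbered 280 and 356 there after thinning. Il12a was found in 10.4% of these cells and 21.4% of the others in library 5 (difference -11.0 points, -14.4 to -6.72), and in 9.55% and 21.4% in library 6 (-11.9 points, -14.8 to -8.19). Ebi3 was found in 6.79% against 4.15% in library 5 (2.63 points, 0.14 to 6.25) and 6.18% against 3.98% in library 6 (2.20 points, 0.04 to 5.25). These Ebi3 intervals rest on 19 and 22 mitosis-high cells in a single draw, and other draws were not run for this comparison. In libraries 7 and 8 the intervals held 0 for Il12a and for Ebi3, and whether the libraries differ in this was not tested. The Csf1 share was lower in mitosis-high cells of library 5 (-1.75 points, -2.33 to -0.06), from 1 such cell, and the intervals of the other libraries held 0. For Il27 the intervals of libraries 7 and 8 held 0. In unthinned counts, Il27 was at 7.77 CPM (5.67 to 10.4) against 2.56 CPM (2.16 to 3.01) in library 7 and at 2.07 against 2.03 CPM in library 8. At equal depth, in a single draw, Il6 shares in mitosis-high cells and the others were within counting error in all 4 libraries. They were 10.7% against 9.02% in library 5 and 7.20% against 8.55% in library 7. In unthinned counts, Il6 relative to total UMIs was lower in mitosis-high cells of library 7, at 14.3 CPM (11.4 to 17.8) against 19.5 CPM (18.4 to 20.7). In library 8 it was at 13.8 CPM (10.7 to 17.6) against 19.7 CPM (18.3 to 21.1). The intervals did not overlap in these libraries, but did in libraries 5 (22.3 against 19.5 CPM) and 6 (20.3 against 19.9 CPM). The summed level of the mitosis list was 313, 351, 204, and 230 CPM in libraries 5, 6, 7, and 8. Before thinning, mitosis-high cells had medians of 15485 to 17538 UMIs and the others 8516 to 10162. Without thinning, the 283 mitosis-high cells of library 5 held 144 Il12a UMIs and the 3913 others held 1847. In library 6, the 366 mitosis-high cells held 162 and the 4348 others held 2086. For Il6, the 355 mitosis-high cells of library 7 held 83 UMIs and the 5266 others held 1130. In library 8, the 292 mitosis-high cells held 67 Il6 UMIs and the 3711 others held 803. The thinned shares and the CPM are thus relative to total UMIs, and a difference in Il12a or Il6 molecules per cell was not tested.

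Genes of the cell cycle led those enriched in cells with Ebi3. Pclaf, a DNA replication factor, was at 173 CPM in cells with Ebi3 and 85.1 CPM in cells without it in library 5, and at 131 and 68.4 CPM in library 8. Stmn1, which destabilizes microtubules, and Top2a, a DNA topoisomerase and itself on the mitosis list, followed. For Il12a the leading genes were Cd69, an early activation marker, Syk, a kinase of B cell receptor signaling, and Neurl3. Cd69 was at 168 against 128 CPM in library 5 and 91.3 against 45.1 CPM in library 8. For Csf1 they included Cd69 and Lgmn, and for Il6 they were Nfkb1, Mthfd2, and Atf3, with log2 ratios of 0.23 to 1.00 over genes and libraries. Nfkb1 was at 93.8 against 78.2 CPM in library 5 and 152 against 125 CPM in library 8. These ratios are descriptions over cells of 1 library, and cells with a member's UMI were deeper than cells without it in each library.

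Cells with 10 or more Jchain UMIs per 10000, the plasma cell marker, were few, at 20, 34, 48, and 22 after thinning. Il6 was found in 0, 0, 4, and 0 of them and Il12a in 0, 2, 1, and 0. In library 5 this is 0 of 20 for Il12a against 20.7% of the other cells (difference -20.7 points, -22.0 to -4.57), and in library 6 it is 5.88% against 20.6% (-14.7 points, -19.2 to -1.49). At equal depth, the Il12a share thus differed between these cells and the others by more than counting error in both libraries. Ebi3 was found in 0, 0, 0, and 2 of them. In summed counts without thinning, Ebi3 was at 3.97, 4.67, 14.2, and 30.4 CPM in Jchain-high cells, from 1, 2, 10, and 11 UMIs, against 10.0, 9.12, 2.96, and 3.40 CPM in the others. In library 7 the interval of Jchain-high cells, 6.80 to 26.1 CPM, lay above that of the others, 2.55 to 3.41 CPM. In library 8 these were 15.2 to 54.4 and 2.88 to 3.98 CPM. In libraries 5 and 6 the intervals, 0.10 to 22.1 and 0.57 to 16.9 CPM, held the level of the others. After thinning, the difference was 7.89 points (1.31 to 26.6) in library 8, and the intervals of the other libraries held 0. Il27 in library 7 was at 9.92 CPM (3.99 to 20.4) in Jchain-high cells, from 7 UMIs, against 2.96 CPM (2.55 to 3.41) in the others. After thinning, its difference there was 3.31 points (0.28 to 13.1), from 2 Jchain-high cells. Library 8 had no Il27 UMI in Jchain-high cells. The counts were small throughout. No other cell type with enough cells was at hand as a measure of free RNA.

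Among 10 receptor genes for these cytokines, 6 had at least 50 UMIs and 1 of them a range of at least 2-fold, which was Il1r2, the IL-1 decoy receptor, at 0.134, 0.136, 0.817, and 1.12 CPM. It was named after its value was seen. Such a range was met by 38.0% of all tested genes. Il27ra, the IL-27 receptor chain and the receptor gene with the highest level, was at 9.05, 11.0, 7.59, and 5.93 CPM in libraries 5, 6, 7, and 8. Il6st, which encodes gp130, stayed between 3.61 and 3.88 CPM, and Il6ra was between 1.59 and 2.14 CPM. Csf1r and Il1r1 had 3 and 6 UMIs in all kept cells. The receptor for the Csf1 product was thus close to 0 in these cells, while the shared IL-6 family chain was present at a low, even level.

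Of 8 JAK, STAT, and SOCS genes, 3 had a range of at least 2-fold, and all 3 were higher in libraries 7 and 8. This count is near the share of all tested genes with such a range, 38.0%. Socs3, the feedback inhibitor of gp130 signaling, was at 36.4, 42.1, 167, and 150 CPM, with a log2 range of 2.20. Jak1 was at 195, 197, 849, and 798 CPM and Jak2 at 8.47, 8.95, 26.0, and 24.0 CPM. Stat3, the main transducer of IL-6, was between 44.7 and 62.4 CPM, and Stat4, that of IL-12, between 18.8 and 19.8 CPM.

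Of 11 related cytokines and antagonists, 5 were testable and 3 had a 2-fold range. For this list and the IL-1 processing genes below, the share of all tested genes is again 38.0%. Il1rn, the IL-1 receptor antagonist, was at 0.223, 0.310, 44.8, and 40.05 CPM, or 201-fold from lowest to highest. It was thus higher in libraries 7 and 8, where Il1b was lower, at most 0.361 CPM. The other two, named after their values were seen, were Osm, from 0.870 to 2.10 CPM and highest in library 8, and Il18, from 2.56 to 6.58 CPM and highest in library 5. Of 5 IL-1 processing genes, 4 were testable and Casp1, the protease that cleaves pro-IL-1β, was the 1 with a 2-fold range. It was at 34.1, 31.8, 12.8, and 11.2 CPM, the order of Il1b. Gsdmd (11.3 to 19.2 CPM), Pycard (216 to 261 CPM), and Casp4 (23.3 to 25.5 CPM) stayed below 2-fold, and Nlrp3 had no UMI in a kept cell.

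Of 12 genes of transcription and mRNA stability, 7 had a range of at least 2-fold, against 38.0% of all tested genes. Irf4, a plasma cell and activation factor, was at 4.91, 6.35, 43.8, and 40.7 CPM, and Batf, an AP-1 family factor, at 154, 143, 454, and 420 CPM. Irf8, known as an activator of Il12b and Il27 in myeloid cells, went the other way, at 537, 560, 203, and 196 CPM. Cebpb was at 14.7, 13.7, 34.3, and 29.2 CPM. The remaining 3, named after their values were seen, were Rel and Zfp36, higher in libraries 7 and 8, and Nfkbiz, higher in libraries 5 and 6. Zc3h12a, Rc3h1, and Arid5a, whose products act on Il6 mRNA stability, had ranges below 1.5-fold. Zfp36, also an mRNA stability gene of this list, ranged 2.39-fold. The median log2 range was 1.098 for this list, 0.63 for JAK, STAT, and SOCS genes, and 0.47 for receptors, against 0.77 for all tested genes.

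**Figure D4:**
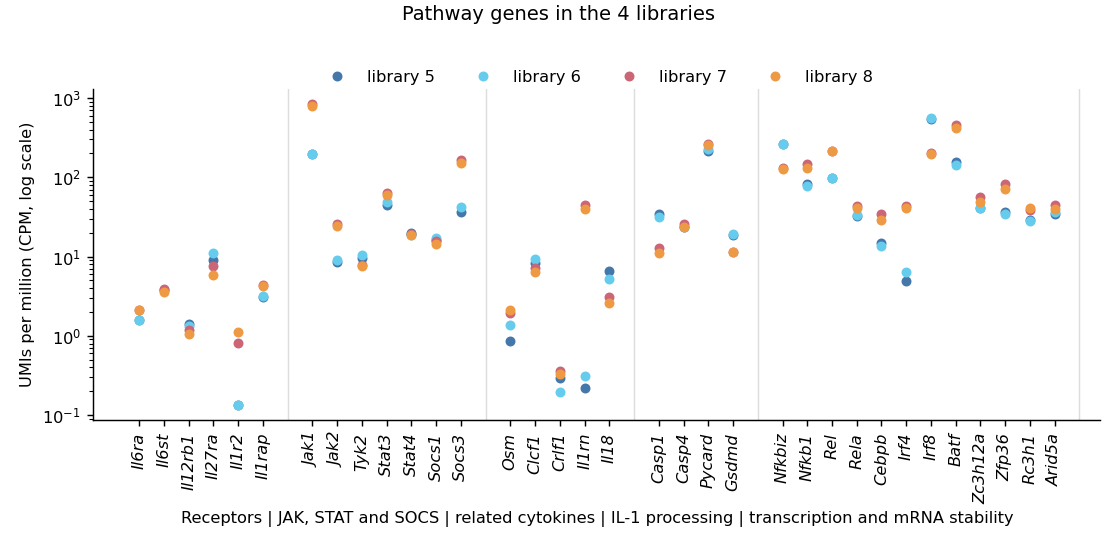
Level of pathway genes with at least 50 UMIs, in CPM (log scale, vertical axis), with 1 point per library. Vertical lines part the lists, and the widest spread is that of Il1rn, from 0.223 to 44.8 CPM.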

How the data were processed

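The deposited values are whole UMI counts per gene and cell. The authors prepared 10x Genomics Chromium Single Cell 3′ v3 libraries, counted UMIs on mm10 with Cell Ranger (version 3.1.0, named with bcl2fastq in the submitters' processing notes), and combined libraries with its aggr step, which evens out sequencing depth. Their later imputation is not in these counts. The 19920 barcodes are fewer than the 35989 matrix columns and were placed on the last columns. The largest shift of Il10 among them fell within 1 column of the start of library 7, and the other library borders were not checked. The first 16069 columns have no barcode and were not used. No group could be assigned to a library, so no model across genes was run, and 0 columns were mapped to a sample.

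Cells with at least 1000 genes and under 10% mitochondrial UMIs were kept (limits of the paper, applied here to counts), without a doublet step. CPM are a gene's summed UMIs per 1000000 UMIs of the library. CPM carry exact Poisson intervals (95%), log2 ranges conditional ones, shares Clopper-Pearson ones, and differences of shares Newcombe ones (SciPy, version 1.17.1, NumPy, version 2.4.6). A library under 3 UMIs counted as 3 in a range. Cells were thinned without replacement to 5000 UMIs with fixed seeds, with a draw of its own for Il27 and its neighbors and for each alternative. Thinned shares other than those of Ebi3 by Il12a rest on a single draw each. The calculations were checked on simulated counts. All members were named, with up to 4 genes of at least 10 CPM per list by range and the 3 genes of at least 50 CPM with the highest lowest ratio between cells with and without a member, where 2 or more libraries had 50 such cells. Il1b and Il23a did not meet that minimum. Some genes of these lists are not reported here. The members and lists were chosen with earlier results of these data known.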

Additional observations from a re-analysis of the deposited data

Results flagged for a closer look

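The cells removed by the filter lay outside the values of the report and entered only the alternatives with looser filters. They held counts of 6 members above the floor of 3 UMIs. In these 1386 cells, 238 Il12a UMIs (35.2 CPM), 134 Il6 UMIs (19.8 CPM), 57 Ebi3 UMIs (8.43 CPM), 43 Csf1 UMIs (6.36 CPM), 5 Il27 UMIs (0.739 CPM), and 4 Il1b UMIs (0.591 CPM) were counted. Of the removed cells, 408, 448, 271, and 259 came from libraries 5, 6, 7, and 8.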

How the results depend on the processing

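The number of members with at least a 2-fold range was 5 and stayed between 4 and 5 when each library was left out in turn. The 4 came without library 8, where Csf1 had a log2 range of 0.94. It was 2 at a fold of 4, where Il12a and Il27 remained past the limit, and 3 when the mitochondrial share was held under 5%, which left 143 and 207 cells in libraries 5 and 6. There the range for Il27 fell from 45.3-fold to 1.11-fold, against a floor of 3 UMIs in these few cells, and Il1b kept 26 UMIs and was not tested. Without each library in turn, the log2 range of Il27 lay between 4.93 and 5.71. It was 5.18 without the 5% of cells with most UMIs. The log2 range of Il6 was 0.24 without mitochondrial, ribosomal protein, and immunoglobulin genes in the total. That of Il1b was 2.95 without its richest cell in each library, an alternative chosen after seeing the data, as was the average over thinning draws.

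The difference in Ebi3 detection by Il12a in library 5 was 1.23 percentage points at 3000 UMIs per cell and 0.72 without a mitochondrial limit. In library 6 it was 2.90 points without thinning, -0.86 at 8000 UMIs, and -0.87 without mitosis-high cells. A second seed gave -1.34, 0.31, 1.55, and 0.05 points in libraries 5, 6, 7, and 8, so the draw itself moved it by up to about 2 points. The cause of the other moves was not tested. No paired analysis was possible because the barcodes carry no sample or replicate label. Placing the barcodes on the first columns was not run, since those columns have no barcode here.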
